A study of Mus musculus with 70 samples.

Results

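Newborn neurons of the mouse dorsal cortex, the future neocortex, were compared between E15.5, a day in the middle of cortical neuron production (E counts embryonic days), and postnatal day 1 (PN). The comparison rests on 6 of the 70 libraries of the study, 4 from E15.5 and 2 from PN. It takes the genes whose mean reached 1 TPM (the share of transcripts that a gene provides, corrected for gene length) in either group, which were 13961 of the 23078 genes measured. The whole study follows neural stem cells (NSC), basal progenitors (BP) and newborn neurons (NBN) through cortical development by RNA sequencing. NBN and BP were sorted for green fluorescence from Tbr2::GFP mice, and NSC from Hes5::GFP mice. Both NBN groups were wild-type, on a C57Bl/6 background, and differed in the labels only in age. BP libraries (4 from E15.5 and 2 from PN) and NSC libraries (4 from E15.5 and 3 from PN) of the same stages served for comparison, as did the NBN libraries of E16.5 (3), E17.5 (2) and E18.5 (3).

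Excitatory neurons of the neocortex are born in sequence, the deep layers first and the upper layers after them. Fezf2, Bcl11b, Sox5 and Tbr1 are transcription factors of deep-layer neurons, which project out of the cortex, and Cux2, Pou3f2 and Pou3f3 of upper-layer neurons, which mostly connect cortical areas. Tbr2, the product of Eomes, marks basal progenitors, the dividing cells that produce most of these neurons, and is lost as neurons mature. In a Tbr2::GFP mouse the fluorescent protein outlasts the factor, so that young neurons stay fluorescent for a time after their birth. No source used here gives how NBN were parted from BP within the same mouse line.

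The labelled cell type was checked first. Genes of postmitotic excitatory neurons had the largest sum of the marker lists in all 6 libraries. The summed level of 14 such markers was 10397 to 10988 TPM at E15.5 and 7354 and 7487 TPM at PN. The same sum had means of 6929 TPM in BP and 6651 TPM in NSC at E15.5, and of 5158 and 1326.5 TPM at PN. It therefore does not by itself part NBN from the progenitor fractions. Eomes stood at 37.6 to 45.1 TPM at E15.5 and at 19.1 and 15.8 TPM at PN, against a mean of 412 TPM in BP at E15.5 and 460 TPM at PN. In each of the 14 NBN libraries the most similar library came from the same stage. The 2 NBN libraries of E17.5, which enter only the stage values and the shared spread, stood apart on the second principal component of the NBN libraries (14.7% of the variance). The E15.5 libraries listed 16441 to 16978 genes above 0 and the PN libraries 17810 and 17434. The labels call every sample female, but 4 of the 6 libraries (E15.5 replicates 2, 3 and 4 and PN replicate 2) carried Y-linked transcripts at 72.5 to 97.8 TPM in sum, while the other 2 stood at 0.283 and 0.310 TPM. Since no label ties a replicate to an animal or a pool of animals, the p-values measure library spread alone, whether technical or biological. TPM keep no sequencing depth, so no interval for counting error was computed. With 2 libraries against 4 an exact permutation test of 1 gene cannot give a two-sided p below 0.133. All tests therefore come from limma on log2(TPM + 1), fitted over all 70 libraries, and a gene was called where the adjusted p was below 0.05 and the log2 difference was at least 1 in size. Log2 differences below are PN minus E15.5 with the standard error, unless another contrast is named.

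Between E15.5 and PN, 1094 genes were called, 7.84% of those tested. Of these, 677 were higher at PN (4.85% of genes tested) and 417 were lower (2.99%). Genes that fell had been abundant: the median level at E15.5 was 25.4 TPM, and 242 of the 417 stood at 20 TPM or more. Genes that rose ended lower, at a median of 8.67 TPM at PN, and 184 of the 677 reached 20 TPM. The balance between the directions depended on the scale. With a pseudocount of 5 in place of 1 the calls were 216 higher and 228 lower, and after quantile normalization they were 529 higher and 575 lower. Without PN replicate 1 there were 1028 calls and without PN replicate 2 there were 1200.

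Deep-layer identity genes fell in larger share than any other list described here. Counts of called members in this and the later lists stand beside 4.85% higher and 2.99% lower over all genes tested. Of 16 deep-layer genes, all of which passed the filter, 11 fell and 1 rose, with a median log2 difference of -1.40 against 0.036 over all genes tested. The summed level of the 16 genes fell from 2055 ± 124 TPM at E15.5 (SD, n = 4) to 786 ± 5.38 TPM at PN (SD, n = 2). In a sorted bulk sample, fewer deep-layer neurons and less deep-layer RNA per neuron cannot be told apart.

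Sox5 (GRCm38 chromosome 6, 143828425 to 144781977, minus strand), which controls the timing of deep-layer neuron production, showed the largest fall of the list. Its level was 209, 202, 216 and 253 TPM in the E15.5 libraries and 9.42 and 10.03 TPM at PN. The log2 difference was -4.36 ± 0.27 (adjusted p = 1.24e-18). Fezf2 (chromosome 14, 12342094 to 12348189, minus strand), which specifies neurons that project to the brainstem and spinal cord, stood at 293, 275, 306 and 306 TPM at E15.5. At PN it stood at 23.7 and 25.1 TPM, a log2 difference of -3.54 ± 0.21 (adjusted p = 5.12e-19). Bcl11b, also called Ctip2, which acts downstream of Fezf2, was at 202, 194, 197 and 230 TPM and then at 29.1 and 29.3 TPM (-2.77 ± 0.29, adjusted p = 4.29e-11).

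The factor of the earliest cortical neurons kept a higher level than these. Tbr1 was at 434, 423, 382 and 418 TPM at E15.5 and at 205 TPM in both PN libraries, so that its log2 difference of -1.01 ± 0.20 (adjusted p = 4.07e-05) lay at the edge of a call. It was -0.986 without E15.5 replicate 1 and -0.998 without E15.5 replicate 2. Other members that fell were the layer 6 co-repressor Tle4 (85.6 to 18.7 TPM, means), the nuclear receptor Nr4a2 (35.1 to 3.95 TPM), the co-factor Ldb2 (126 to 26.9 TPM), Foxp1 (52.4 to 15.51 TPM), Tshz3 (47.2 to 7.90 TPM), Foxp2 (11.499 to 4.79 TPM) and Zfpm2 (26.6 to 11.8 TPM). The call of Zfpm2 was lost without PN replicate 2, at -0.93. Etv1, a factor of layer 5 neurons, was the member that rose, from 6.76 to 20.3 TPM (1.48 ± 0.34, adjusted p = 0.000378). Crym, Ntsr1, Nfia and Nfib were not called, with adjusted p from 0.0735 (Nfia) to 0.862 (Crym).

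Upper-layer genes moved in both directions. Of 18 genes, all tested, 6 rose and 3 fell, with a median log2 difference of 0.59, and 3 rose without PN replicate 2. Unc5d, a netrin receptor of migrating upper-layer neurons, rose most, from 11.4, 11.6, 10.2 and 11.98 TPM at E15.5 to 57.6 and 77.3 TPM at PN (2.47 ± 0.27, adjusted p = 1.17e-10). Pou3f2 rose from 54.8 ± 3.94 TPM (SD, n = 4) to 138 and 151 TPM, and Pou3f3 from 268 ± 5.57 TPM to 534 and 628 TPM. Cux2 went from 56.8 to 116 TPM (1.02 ± 0.22, adjusted p = 0.000138) and the transcriptional co-factor Lmo4 from 134 to 278 TPM (1.05 ± 0.16). These calls lay near the minimum of 1: without PN replicate 2 the differences of Cux2, Lmo4 and Pou3f3 were 0.931, 0.996 and 0.991, and that of Cux2 was 0.989 without E15.5 replicate 3. Rasgrf2 also rose, though it remained low, from 0.416 to 2.22 TPM. Rorb, a nuclear receptor of layer 4, fell from 10.1 to 2.96 TPM, Plxnd1, a semaphorin receptor, from 37.8 to 15.2 TPM and Inhba from 6.74 to 2.05 TPM.

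**Figure D1:**
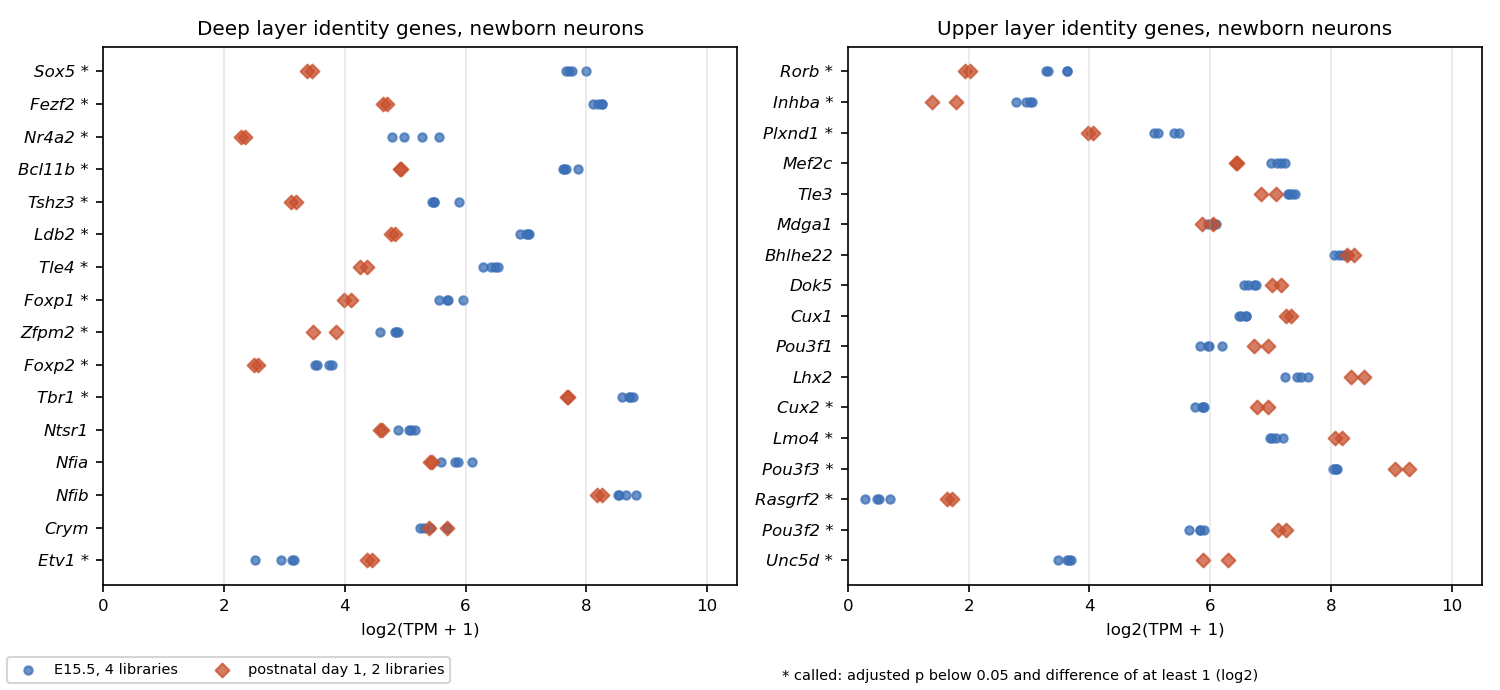
Level of 16 deep-layer genes (left) and 17 upper-layer genes (right) as log2(TPM + 1) in the 4 E15.5 libraries (circles) and the 2 PN libraries (diamonds) of newborn neurons, with genes ordered by their difference and called genes starred. The diamonds of Sox5 and Fezf2 lie far to the left of the circles and those of Unc5d lie to the right.

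Promoter sequence is shown for a pair of genes that rose and a pair that fell, so that a reader can set the regulatory sequence beside the changes. The windows are the 250 bases before the annotated start from RefSeq (build GRCm38.p6), read 5′ to 3′ along the gene. For Cck and Grik3 this is the start of the gene, while the windows of Sox5 and Zbtb20 lie before RefSeq starts inside the span of the gene annotated in GENCODE. None of the 4 overlaps an annotated exon. Capitals mark the hexamer CATCTG or its reverse complement CAGATG, the E-box that factors of the Neurog and Neurod class bind, and ACAAAG or CTTTGT, a core that Sox factors bind. The coordinates are chr9:121495695-121495944 for Cck (minus strand), chr16:43247034-43247283 for Zbtb20 (plus), chr6:143947107-143947356 for Sox5 (minus) and chr4:125490446-125490695 for Grik3 (plus). Cck and Zbtb20 rose and Sox5 and Grik3 fell.
Cck: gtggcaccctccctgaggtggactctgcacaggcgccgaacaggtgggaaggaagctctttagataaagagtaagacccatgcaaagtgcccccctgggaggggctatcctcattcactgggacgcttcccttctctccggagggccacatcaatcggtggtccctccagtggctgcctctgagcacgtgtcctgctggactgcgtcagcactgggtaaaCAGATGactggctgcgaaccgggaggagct
Zbtb20: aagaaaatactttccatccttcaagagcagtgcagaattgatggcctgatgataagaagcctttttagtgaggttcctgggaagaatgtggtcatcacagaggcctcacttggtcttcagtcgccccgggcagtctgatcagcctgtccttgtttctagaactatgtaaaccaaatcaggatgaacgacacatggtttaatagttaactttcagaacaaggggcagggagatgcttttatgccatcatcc
Sox5: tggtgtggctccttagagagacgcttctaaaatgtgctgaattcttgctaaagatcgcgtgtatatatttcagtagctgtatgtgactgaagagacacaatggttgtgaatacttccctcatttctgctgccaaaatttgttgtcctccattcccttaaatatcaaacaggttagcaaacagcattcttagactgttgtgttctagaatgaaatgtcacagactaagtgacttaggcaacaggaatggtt
Grik3: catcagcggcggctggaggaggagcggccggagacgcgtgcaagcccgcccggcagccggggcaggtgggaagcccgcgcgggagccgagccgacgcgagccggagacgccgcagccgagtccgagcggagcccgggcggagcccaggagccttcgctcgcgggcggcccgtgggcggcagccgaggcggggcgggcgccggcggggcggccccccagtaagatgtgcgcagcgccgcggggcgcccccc

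The E-box was found once in the Cck window and in none of the other 3, and the Sox core in none of the 4. Over all 32851 windows of this length, 14.44% held the E-box and 16.46% the Sox core, on either strand. Genes of chromosome 18, among them Grp and Mc4r, were left out of the lookup by gene but not of the share over all genes. Counted by gene, of the 12 genes with the largest rise 10 were matched to windows, and 4 of these held the E-box in at least 1 window. Of the 12 with the largest fall 9 were matched, and none of these held it. Over all 27025 genes with a window the share was 16.3%. The Sox core was in 3 of the 10 and in none of the 9, against 18.6% of all genes. Genes differ in the number of windows, a match is a run of letters and not a shown binding site, and no match says only that the letters are not in these windows.

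Among genes at 20 TPM or more, Mc4r, a melanocortin receptor, fell most, from 55.2, 46.9, 38.7 and 52.3 TPM to 0.509 and 0.368 TPM (-5.09 ± 0.35, adjusted p = 7.53e-17). Grik3, a kainate-type glutamate receptor subunit, stood at 71.8, 69.8, 73.2 and 81.1 TPM at E15.5 and at 3.16 and 2.76 TPM at PN (-4.24 ± 0.49, adjusted p = 5.05e-10). Lrrtm3, a synaptic organiser, went from 36.9, 39.7, 42.3 and 39.9 TPM to 1.24 and 1.29 TPM (-4.17 ± 0.30, adjusted p = 1.31e-16). Groups that do not overlap were a condition for naming the genes with the largest changes and were found in 64.4% of all genes tested, so nothing is read from the lack of overlap in them. Hs3st4, an enzyme that modifies heparan sulfate, fell from 67.8 to 3.37 TPM in the means. The planar polarity gene Prickle1 fell from 32.1 to 1.31 TPM, the kinesin-family gene Kif26a from 123 to 7.999 TPM and the centrosome protein gene Nin from 63.7 to 3.73 TPM. Ngfr, the p75 neurotrophin receptor, fell from 23.1 to 0.992 TPM. Cdh13, a cadherin without a cytoplasmic part, fell from 192 to 16.9 TPM and the adhesion gene Kirrel3 from 116 to 11.1 TPM. Together with Sox5 and Fezf2 these were the 12 largest falls among genes at 20 TPM or more, and their adjusted p ran from 5.12e-19 to 5.05e-10.

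Among genes at 20 TPM or more, Grp, which encodes gastrin-releasing peptide, rose most, from 2.52, 5.41, 3.76 and 2.98 TPM to 99.95 and 101.8 TPM (4.49 ± 0.36, adjusted p = 1.05e-14). Sema3c (chromosome 5, 17574281 to 17730268, plus strand), a secreted semaphorin that guides callosal axons, stood at 24.5, 24.1, 23.98 and 21.4 TPM at E15.5 and at 384 and 502 TPM at PN (4.17 ± 0.29, adjusted p = 9.90e-17). Cck, the cholecystokinin precursor, rose from 20.5, 24.7, 43.8 and 30.7 TPM to 234 and 212 TPM (2.91 ± 0.43, adjusted p = 1.78e-07). Calb2, the calcium-binding protein calretinin, rose from 13.1, 17.49, 12.01 and 12.9 TPM to 138 and 151 TPM (3.30 ± 0.28).

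Other large rises were in genes best known from cells other than young excitatory neurons. Apoe, an apolipoprotein made by astrocytes and microglia, rose from 17.3 to 153 TPM in the means, and Ptgds, a prostaglandin synthase of meninges and glia, from 9.81 to 109 TPM. Slc6a11, a GABA transporter known from astrocytes, rose from 5.05 to 49.4 TPM, with 48.0 and 50.8 TPM in the PN libraries. Dlx1, a homeobox gene of interneurons, rose from 1.83 to 22.8 TPM. In PN NSC libraries Apoe stood at 2251 TPM and Slc6a11 at 271 TPM, while in PN BP libraries they stood at 150.4 and 11.0 TPM. Zbtb20, a repressor of hippocampal neurons and glia, rose from 4.02, 3.94, 4.39 and 8.26 TPM to 41.8 and 55.4 TPM (3.05 ± 0.37, adjusted p = 2.54e-09). The last of the 12 were Zfp385b, a zinc finger gene (2.03 to 26.1 TPM), Nbl1, which encodes an antagonist of bone morphogenetic proteins (2.30 to 26.0 TPM), and Mid1, a ubiquitin ligase gene on the X chromosome (15.2 TPM to 75.6 and 142 TPM).

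**Figure D2:**
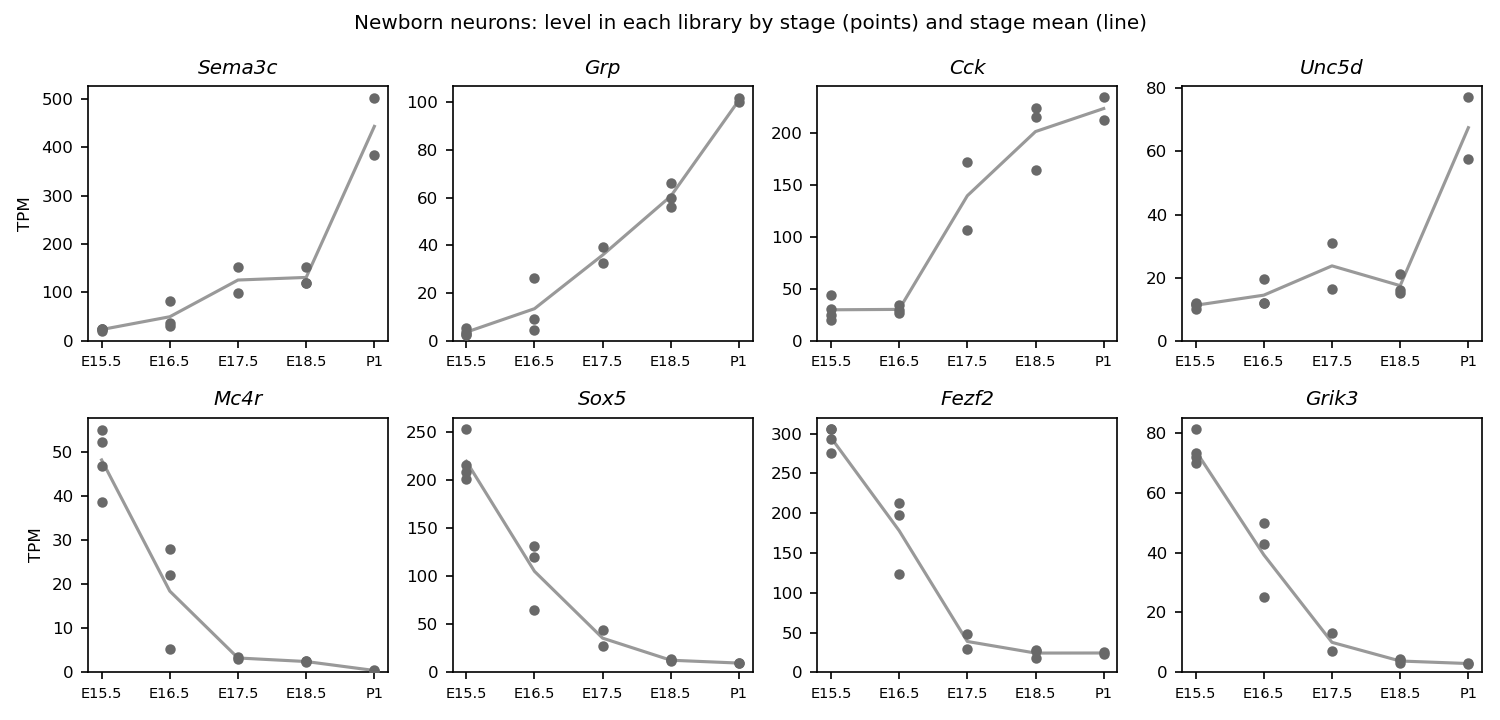
TPM of 4 genes that rose (top) and 4 that fell (bottom) in each newborn neuron library from E15.5 to postnatal day 1 (P1), with points for libraries and a line through the stage means. Sox5, Fezf2 and Grik3 were near their PN level by E18.5, while Sema3c and Unc5d were highest at PN.

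The stages between place some of the changes in time. From E15.5 to E18.5, 562 genes were called in NBN (4.03% of those tested), 241 higher (1.73%) and 321 lower (2.3%). From E18.5 to PN 199 were called (1.43%), 166 higher (1.19%) and 33 lower (0.236%). The first of these contrasts shares the E15.5 libraries with the main one and the second shares the PN libraries. In each direction the steps together called fewer genes than the main contrast (677 higher and 417 lower). Some of its genes were therefore called in neither step. The first step rests on 4 and 3 libraries and the second on 3 and 2, so their counts are not directly comparable. Over the stages Sox5 had means of 220, 105.3, 35.7, 12.7 and 9.72 TPM from E15.5 to PN, and Fezf2 of 295, 178, 38.9, 24.3 and 24.4 TPM. Neither was called between E18.5 and PN (-0.35, adjusted p = 0.380, and 0.03, adjusted p = 0.948). Of the 16 deep-layer genes, 13 were lower and none higher at E18.5 than at E15.5. From E18.5 to PN 2 of them were higher and 1 lower.

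The rises came at different times. Cck went from 29.9 and 30.3 TPM at E15.5 and E16.5 to 139.5 TPM at E17.5, 201 TPM at E18.5 and 223 TPM at PN, with no call in the last step (0.16, adjusted p = 0.833). Grp had stage means of 3.67, 13.5001, 36.0, 60.7 and 101 TPM. Sema3c and Unc5d were called again between E18.5 and PN: Sema3c went from 131 to 443 TPM (1.75 ± 0.31, adjusted p = 4.77e-05) and Unc5d from 17.49 to 67.5 TPM (1.89, adjusted p = 3.28e-06). Called in the same step were also the hippocampal factors Prox1, from 4.62 to 16.6 TPM (1.67, adjusted p = 7.55e-05), and Zbtb20, from 18.6 to 48.6 TPM (1.35, adjusted p = 0.0101), and the neurogenic factor Neurod1, from 52.5 to 110 TPM (1.05, adjusted p = 0.00118). The split between higher and lower calls in this last step moved with the scaling: it was 101 to 55 with median ratio scaling and 109 to 102 after quantile normalization.

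Regional and progenitor genes were examined next. Of 12 genes of hippocampus and dentate gyrus, 4 rose and none fell (median 0.89). Prox1, a factor of dentate granule neurons, rose from 1.51, 0.949, 1.46 and 1.49 TPM to 18.0 and 15.3 TPM (2.91 ± 0.29, adjusted p = 9.28e-12). Nr2f1, a nuclear receptor that patterns cortical areas, rose from 202 TPM to 462 and 482 TPM. Among 14 basal progenitor genes 3 fell and 3 rose. Eomes fell from 41.9 to 17.48 TPM in the means (-1.22 ± 0.26, adjusted p = 0.000127) and the proneural gene Neurog2 from 63.0 to 28.0 TPM. Neurog1, its relative, stood at 3.83 to 6.27 TPM at E15.5 and was listed at 0 in both PN libraries. In the opposite direction Insm1, a factor that drives basal progenitor formation, went from 102 to 213 TPM (1.06 ± 0.14, adjusted p = 1.04e-08), and its difference was 0.978 without PN replicate 2.

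Genes of radial glia, the stem cells of the cortex, rose from low levels. Of 20 genes 9 rose and none fell (median 0.79), among them Fabp7, a fatty acid binding protein, from 60.1 TPM to 236 and 170 TPM, Sox2 from 8.73 to 24.3 TPM, Pax6 from 12.3 to 28.0 TPM, Emx2 from 9.53 to 29.0 TPM and Tnc, a matrix glycoprotein, from 2.60 to 16.1 TPM. Vim and Nes were not called (adjusted p = 0.123 and 0.198). The summed level of the list was 487 to 554 TPM at E15.5 and 766 and 644 TPM at PN, against a mean of 14498 TPM in PN NSC. Of 28 cell cycle genes 3 rose and none fell (median 0.68): Mki67 from 3.56 to 9.82 TPM, Top2a from 8.08 to 19.2 TPM and Birc5 from 4.11 to 9.73 TPM. Without PN replicate 1 Birc5 was no longer called, at 0.786, and without PN replicate 2 there were 8 cell cycle genes called higher. With a pseudocount of 5 in place of 1, 5 radial glia genes and none of the cell cycle genes were called higher by limma, and with a pseudocount of 0.5 there were 7 cell cycle calls. In PN BP libraries Mki67 stood at 37.4 TPM and Top2a at 65.1 TPM.

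Genes of early neuronal life split between those directions. Of 22 genes of newborn neurons and migration 2 rose and 2 fell (median -0.29). Neurod1 rose from 33.9, 39.0, 36.0 and 38.7 TPM at E15.5 to 114.9 and 104 TPM at PN (1.55 ± 0.23, adjusted p = 2.18e-07), and Nrp1, a receptor for class 3 semaphorins, from 70.6 to 226 TPM. The factor Sox11 fell from 400 to 174 TPM (-1.24 ± 0.26), and its call was lost without PN replicate 1 (-0.859, adjusted p = 0.0508). Tiam2, an exchange factor for Rac, fell from 275 to 120 TPM. Dcx, the doublecortin of migrating neurons, stood at 895 and 563 TPM and was not called (-0.67, adjusted p = 0.0590).

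The insulin-like growth factor 2 mRNA-binding proteins, which are high in fetal cells and decline with age, fell together. All 3 members of that family among the 9 tested heterochronic genes fell. Igf2bp2 went from 39.2, 36.6, 37.0 and 37.4 TPM to 4.85 and 4.71 TPM (-2.74 ± 0.19, adjusted p = 4.07e-17), Igf2bp3 from 20.3 to 6.75 TPM and Igf2bp1 from 11.55 to 4.33 TPM. Another 3 genes of the list, Lin28a, Hmga2 and Trim71, did not pass the filter on level. Lin28b was at 1.69 and 0.470 TPM and was not called, with a log2 difference of -0.85.

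Vesicular glutamate transporters exchanged rank: Slc17a7, which encodes VGLUT1, fell from 57.8, 61.9, 62.3 and 56.5 TPM to 9.46 and 9.45 TPM (-2.53 ± 0.23, adjusted p = 4.26e-13), and Slc17a6, which encodes VGLUT2, rose from 18.9, 17.46, 16.8 and 16.1 TPM to 64.4 and 61.9 TPM (1.81 ± 0.21, adjusted p = 9.56e-10). Slc17a7 was the higher of the pair in every E15.5 library and Slc17a6 in both PN libraries. Of 25 genes of synaptic vesicles and release 2 rose and 4 fell (median -0.27). Sv2b, a vesicle glycoprotein, fell from 15.6 to 1.83 TPM. Rph3a, a partner of Rab3 proteins, fell from 21.4 to 8.23 TPM. The calcium sensor Syt1 went from 96.7 to 44.3 TPM (-1.11 ± 0.35, adjusted p = 0.00819), and its adjusted p was 0.0532 without PN replicate 1 and 0.0654 without PN replicate 2. Vamp1 rose from 2.19 to 8.22 TPM.

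Synaptic adhesion genes mostly fell where they were called. Of 24 genes 8 fell and 1 rose (median -0.71), and none rose without E15.5 replicate 4. Beside Lrrtm3 these included Lrrtm1 (86.2 to 30.1 TPM), Lrfn5 (77.7 to 22.3 TPM), Slitrk5 (22.5 to 7.81 TPM), all leucine-rich repeat proteins, and the pentraxin gene Nptx1 (21.6 to 8.28 TPM). Of 20 postsynaptic scaffold and kinase genes 3 fell and 1 rose. Baiap2, an adaptor of the actin skeleton, fell from 58.2 to 13.7 TPM (-2.0002 ± 0.17, adjusted p = 1.04e-13), Camk2n1, an inhibitor of CaM kinase, from 41.8 to 19.5 TPM and Homer1 from 102 to 48.0 TPM. The call of Homer1 was lost without PN replicate 1 (-0.909). Nrgn, neurogranin, rose from 3.39 to 8.63 TPM.

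Receptor subunits of one family went in opposite directions. Of 21 tested glutamate receptor genes 3 rose and 2 fell (median 0.02), but 4 fell without PN replicate 2 or E15.5 replicate 2, and 5 fell with median ratio scaling. While Grik3 fell, the kainate subunit genes Grik2 and Grik4 rose. Grik2 was at 12.8, 13.7, 13.2 and 16.501 TPM and then at 45.5 and 41.0 TPM (1.56 ± 0.17, adjusted p = 9.46e-11). Grik4 went from 1.02, 1.27, 0.982 and 0.820 TPM to 11.0 and 11.8 TPM (2.62 ± 0.16, adjusted p = 5.12e-19). The metabotropic receptor Grm5 fell from 19.04 to 4.78 TPM. Gria2, the AMPA receptor subunit that limits calcium entry, went from 151 to 306 TPM (1.02 ± 0.35, adjusted p = 0.0142), but its adjusted p was 0.117 without PN replicate 1 and 0.0556 without PN replicate 2. Without E15.5 replicate 2 or 3 the difference was 0.974 or 0.973. Among 17 GABA receptor and chloride transport genes Gabra2 rose from 11.97 TPM to 42.7 and 85.2 TPM and Gabra4 from 2.19 to 7.08 TPM, while Gabra3 fell from 19.1 to 6.78 TPM. Without PN replicate 2 or E15.5 replicate 2, and after quantile normalization, 2 members fell. The chloride transporters Slc12a2 and Slc12a5 were not called.

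Of 28 tested genes of voltage-gated channels 3 rose and 2 fell. Without E15.5 replicate 2, and after quantile normalization, 4 fell. Those that rose included the potassium channel genes Kcnd2 (7.07 to 28.8 TPM) and Kcnc2 (0.762 to 4.84 TPM), and Cacna1e (36.3 to 6.33 TPM), a calcium channel gene, and Kcna1 (13.6 to 5.01 TPM) fell. Of 25 cytoskeletal genes 4 fell and none rose (median -0.37). They were Ina (446 to 119 TPM), Nefm (62.2 to 11.3 TPM) and Nefl (24.03 to 4.97 TPM), which encode neurofilament proteins, and Map1b (481 to 201 TPM), a microtubule-associated protein. Nefl was at 20.8 TPM at E18.5, and its fall from there to PN was called (-1.85, adjusted p = 1.03e-05). Among 28 tested axon guidance genes Sema3c, Slit2 (8.81 to 23.5 TPM) and Epha4 (54.4 to 138 TPM) rose and Slit1 (67.5 to 14.2 TPM) fell, so that these ligands of Robo receptors went in opposite directions. Robo1 and Robo2 were not called (adjusted p = 0.122 and 0.839).

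**Figure D3:**
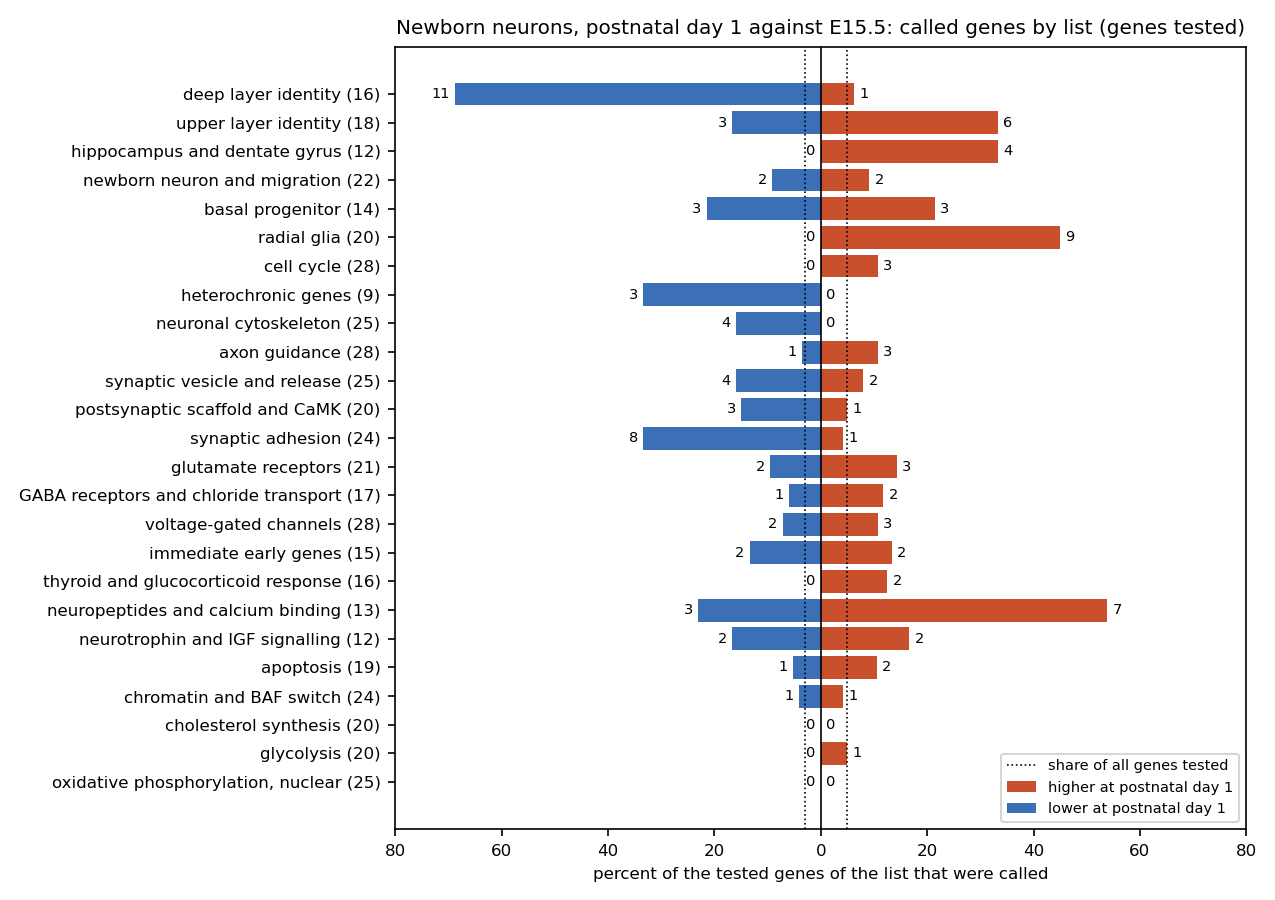
Percent of the tested genes of 25 lists that were called higher (right) or lower (left) in newborn neurons at PN than at E15.5, with the number of called genes beside each bar and the number tested in brackets. Dotted lines mark 4.85% higher and 2.99% lower over all genes tested. Among the lists plotted, which leave out the cell type markers, deep-layer genes reach farthest to the left and neuropeptide genes farthest to the right.

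Peptide and calcium-binding genes changed in most of the members that could be tested. Of 19 listed genes 13 passed the filter, 7 of them rose and 3 fell (median 1.10), and the 6 that did not pass, among them Vip, Crh and Pvalb, are not counted here. A low gene could pass only through the stage at which it was high, so that these shares run above those of lists of abundant genes. Besides Grp, Cck and Calb2, Tac2 and Nts were called higher at low levels, at 1.97 and 8.70 TPM at PN. The call of Nts was lost without PN replicate 1 (adjusted p = 0.101). Rprm, which is on the list but encodes neither a peptide precursor nor a calcium-binding protein, fell from 315 to 87.5 TPM (-1.84 ± 0.18, adjusted p = 9.89e-12). Npy, neuropeptide Y, went from 26.7 to 9.12 TPM (-1.51 ± 0.52, adjusted p = 0.0174), and its adjusted p was 0.223 without PN replicate 2. Hpcal4, a neuronal calcium sensor that fell, was also lost without that library (-0.893, adjusted p = 0.0615), which left 1 fall, that of Rprm. With a pseudocount of 5, 4 of the 13 were called higher. The rise was not particular to NBN: in BP over the same stages 7 of the 13 were called higher and 2 lower (median 1.27). In 3 of the 13 the NBN change was called above the BP change and in 3 below it, with a median difference of -0.05.

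Of 19 tested apoptosis genes 2 rose (10.5%) and 1 fell (5.26%), against 4.85% and 2.99% of all genes tested. Counts this small are not read as a change of the list, and 2 fell without PN replicate 2 or E15.5 replicate 3. Bcl2, which protects cells, fell from 11.0 to 1.82 TPM (-2.08 ± 0.17, adjusted p = 2.28e-14), while Bcl2l11 and Hrk, which promote death, rose from 5.24 to 16.7 TPM and from 3.59 to 13.3 TPM. The other 16 were not called. Of 15 tested immediate early genes 2 rose and 2 fell. One of the latter was Homer1, which was not called without PN replicate 1. Fos rose from 6.16 TPM to 29.4 and 18.48 TPM and Egr1 from 3.63 TPM to 25.2 and 17.7 TPM, while Fosl2 fell from 23.0 to 5.57 TPM. Fos and Egr1 also respond to tissue dissociation, and of 12 genes of that response these were the only called members. Both were also called higher at PN in BP, at means of 28.4 and 48.4 TPM. The part of dissociation in these values was not tested.

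Genes of hormone and growth factor signalling were called in both directions. Of 16 genes of thyroid and glucocorticoid response 2 rose and none fell. One was Sgk1, a kinase induced by glucocorticoids, at 10.9 and 22.7 TPM, whose difference was 0.954 without PN replicate 2, 0.996 without E15.5 replicate 1 and 0.916 without E15.5 replicate 3, each under the threshold of 1. It was also under it with median ratio scaling (0.962), quantile normalization (0.974), the replicate block (0.967) and a Y-linked covariate (0.990). Without PN replicate 2 or E15.5 replicate 3 the list held 1 call higher, and without PN replicate 2 or E15.5 replicate 2 it held 1 lower. The other was Dio2, the deiodinase that activates thyroid hormone, at 0.149 and 1.83 TPM. Of 12 tested genes of neurotrophin and insulin-like growth factor signalling 2 rose and 2 fell. Igfbp5, a binding protein for these factors, rose from 5.27 to 13.8 TPM, and Ngfr was one of the members that fell. The call of Igf1r, the receptor of insulin-like growth factor 1, was lost without PN replicate 1 (-0.852, adjusted p = 0.0802), which left 1 fall.

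Housekeeping pathways had few calls between E15.5 and PN. None of 20 cholesterol synthesis genes and none of 25 nuclear genes of oxidative phosphorylation was called by limma, while 8 and 8 of them had an unadjusted p below 0.05. The median differences were -0.05 and -0.03. The course between was not flat: the cholesterol list summed to means of 2022 TPM at E15.5, 3138 TPM at E17.5, 2747 TPM at E18.5 and 1937 TPM at PN. From E18.5 to PN 1 gene of that list was called lower (median -0.435). Of 20 glycolysis genes Aldoc was called, from 6.56 to 21.6 TPM, an isoform typical of astroglia. The glycolysis list summed to means of 4590 TPM at E15.5, 5666 TPM at E18.5 and 4074 TPM at PN. Of 24 chromatin genes Hdac9 rose from 1.17 to 11.0 TPM (2.48 ± 0.20, adjusted p = 7.06e-15) and Dpf3 was called lower, with no call without PN replicate 1 (-0.978, adjusted p = 0.0592). This is 4.17% in each direction, near the shares over all genes tested (4.85% higher and 2.99% lower).

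Markers of other cells rose with many of these changes. Of 13 tested astroglia markers 6 rose and none fell, and the list summed to 157 to 177 TPM at E15.5 and to 391 and 352 TPM at PN. Gfap went from 0.103 to 6.77 TPM, and Aqp4 and S100b did not pass the filter. Of 7 tested markers of the oligodendrocyte lineage 5 rose, and Olig1 stood at 0.190, 0.0887, 0 and 0.0959 TPM at E15.5 and at 20.3 and 17.0 TPM at PN. That list summed to 14.8 to 18.3 TPM at E15.5, to 63.2 and 55.7 TPM at PN, and to a mean of 1771 TPM in PN NSC. Microglia markers rose in 10 of 11 tested. That list summed to 16.9 to 21.3 TPM at E15.5 and to 94.8 and 86.2 TPM at PN, and C1qb was at 0.422 TPM and then at 18.53 and 18.8 TPM. A marker near 0 TPM at E15.5 could pass the filter only through PN. The shares of the marker lists therefore run above those of lists of abundant genes. With a minimum mean of 5 TPM, 5 of 6 tested microglia and 3 of 4 tested oligodendrocyte lineage markers were called higher. With a pseudocount of 5, which weighs low genes less, 4 microglia and 2 oligodendrocyte lineage markers were called higher.

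Markers of vessels and interneurons moved in the same direction. Of 12 endothelial and pericyte markers 4 rose, and their sum was 24.6 to 37.0 TPM at E15.5 and 94.3 and 82.3 TPM at PN. Of 15 tested interneuron markers 8 rose and 1, Npy, fell, though not without PN replicate 2. Their sum was 46.6 to 50.5 TPM at E15.5 and 124.8 and 106.5 TPM at PN, with Gad1 at 1.06 and 7.09 TPM and Dlx2 at 1.99 and 16.3 TPM in the means. With a pseudocount of 5, 3 interneuron and 2 vessel markers were called higher. In BP the means of the sums also rose, from 26.8 to 105.5 TPM for interneuron and from 28.6 to 88.7 TPM for vessel markers. No member of these 2 lists had an NBN change called above the BP change, and 1 interneuron marker was called below it. Of the 11 microglia markers, in contrast, 5 were called above the BP change and 1 below. The mean of their list sum went from 9.62 to 31.2 TPM in BP. Among astroglia markers 2 were called above and 2 below, and their BP sum went from 129 to 388 TPM. In the oligodendrocyte lineage 1 marker was called above the BP change and none below. Cajal-Retzius markers summed to 167 to 180 TPM and to 347 and 365 TPM, but Calb2 and Cxcr4 were the called members, and Reln and Trp73 were not (adjusted p = 0.856 and 0.613). None of 10 tested markers of meninges, choroid plexus and ependyma was called by limma (2 had an unadjusted p below 0.05), and Ttr went from 62.4 to 168 TPM (adjusted p = 0.294). Red cell markers summed to 494 to 779 TPM at E15.5 and to 597 and 347 TPM at PN. These sums lie beside the rises of Apoe, Ptgds, Slc6a11, Dlx1, Aldoc and the radial glia genes, and their part in those rises was not tested. Of the 677 genes that rose, 364 (53.8%) had a higher mean in PN NSC than in PN NBN, against 55.5% of all genes tested, and 307 (45.3%) a higher mean in PN BP, against 53.9%. At E15.5 the shares were 69.4% for NSC and 68.5% for BP, against 48.8% and 56.0% of all genes tested. The 677 were called for low E15.5 and high PN values in NBN, which raises the former shares and lowers the latter. Nothing is therefore read from these shares.

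**Figure D4:**
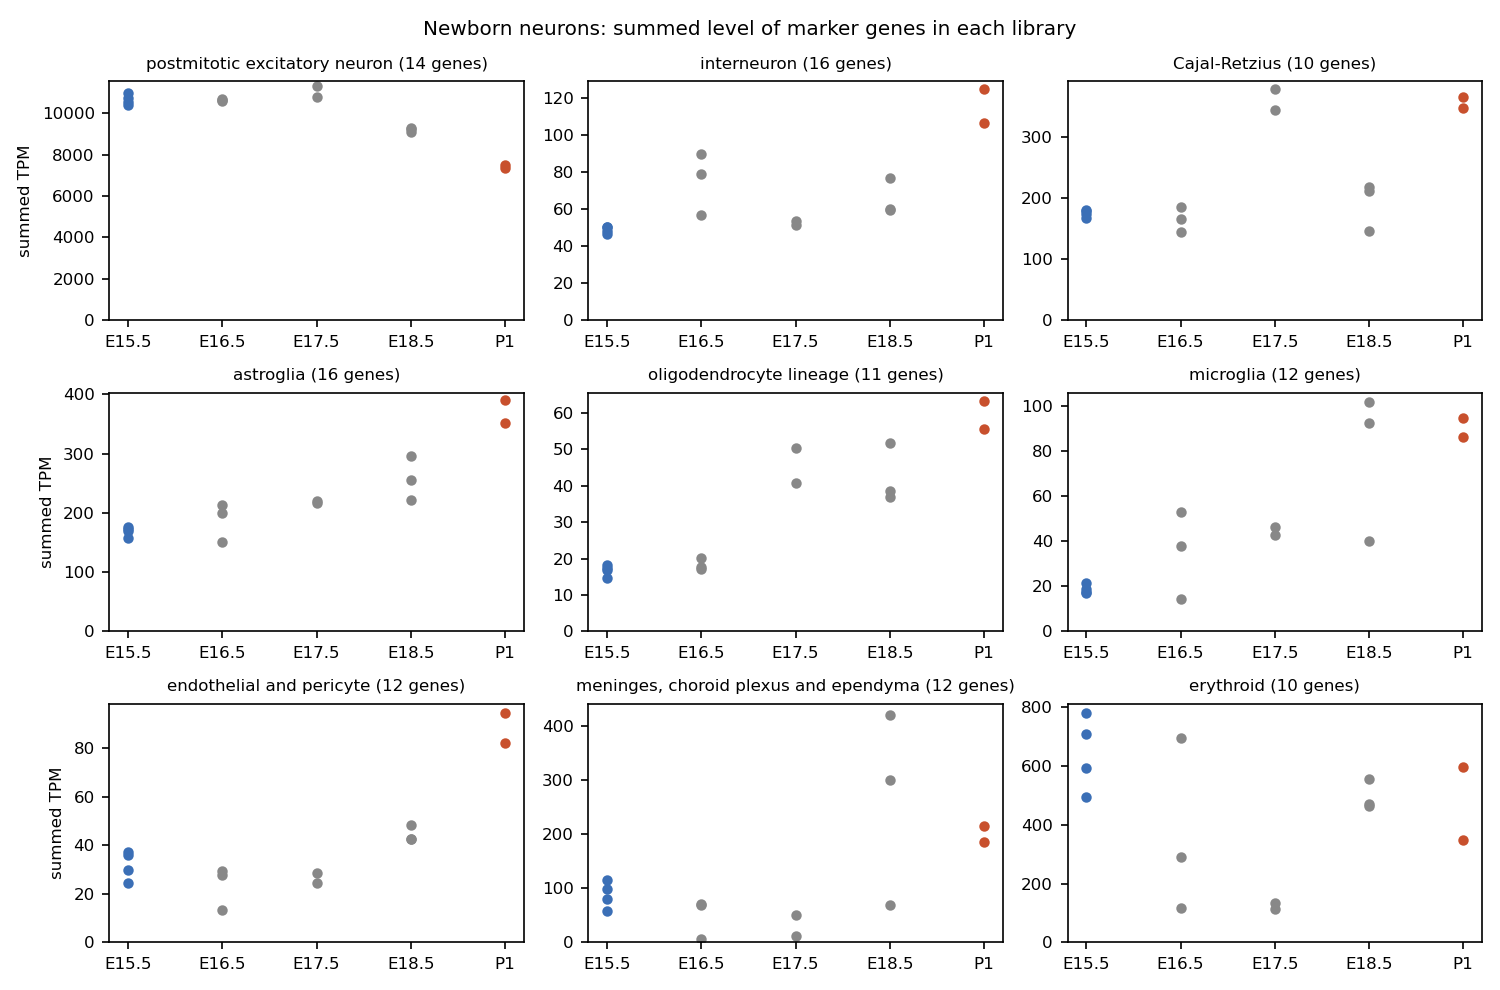
Summed TPM of the marker genes of 9 cell types in each newborn neuron library by stage, with E15.5 in blue, PN in orange and the stages between in grey. Excitatory neuron markers are lowest at PN, at 7354 and 7487 TPM, and astroglia, oligodendrocyte lineage, interneuron and vessel markers are highest there.

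Whether the change differed from that in progenitors was tested with the difference of the changes. This test took all libraries as independent, also BP and NBN libraries that bear the same replicate number. On their own, BP had 764 calls between the same stages (5.47%), 484 higher (3.47%) and 280 lower (2.01%), and NSC had 2888 (20.69%), 1995 higher (14.29%) and 893 lower (6.4%). Against BP, sorted from the same mouse line, 451 genes were called (3.23% of those tested), with the NBN change above the BP change in 184 (1.32%) and below it in 267 (1.91%). Cck lay highest: it rose in NBN while it stood at 17.2 and 8.85 TPM in BP, and the difference of the changes was 3.79 ± 0.60 (adjusted p = 9.92e-06). Nrp1 rose in NBN from 70.6 to 226 TPM and went from 239 to 98.3 TPM in BP (2.94 ± 0.41, adjusted p = 6.79e-07). Grp went from 6.94 to 22.2 TPM in BP (2.88 ± 0.51, adjusted p = 6.10e-05). For Sema3c the fractions met: BP had 148 TPM at E15.5 and 502 TPM at PN, NBN 23.5 and 443 TPM (2.42 ± 0.41, adjusted p = 3.63e-05). Tiam2 fell in both but further in BP, from 222 to 17.8 TPM (2.37 ± 0.44).

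Among the genes whose change lay below that of BP, Hs3st4 was at 4.07 and 3.02 TPM in BP, and the difference of the changes was -3.65 ± 0.38 (adjusted p = 1.34e-09). Mc4r was at 2.33 and 0.203 TPM in BP (-3.64 ± 0.50), Grik3 at 4.25 and 2.41 TPM (-3.63 ± 0.69) and Nxph3, a neurexophilin that fell from 84.4 to 9.26 TPM in NBN, at 11.7 and 14.1 TPM (-3.31 ± 0.40). Npy moved the other way in BP, from 1.98 to 10.6 TPM (-3.51 ± 0.74, adjusted p = 0.000903). Of the 16 deep-layer genes 8 were called below the BP change and none above it, with a median difference of -1.10 against 0.025 over all genes. Of the 18 upper-layer genes 6 were called above and 1 below. Deep-layer genes also summed to less at E15.5 in BP, at a mean of 1351 TPM, and to 1138 TPM at PN. Falls of these genes were not confined to NBN: 5 of the 16 were called lower in BP itself. In NSC 9 were called lower and 1 higher (median -1.08), and the sum went from 1197 to 619 TPM. Against the NSC change 2 were called above and 6 below. Sox5 and Fezf2 fell in BP (-1.99 and -1.70) and in NSC (-1.15 and -2.03) as well.

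Against NSC 2446 genes were called (17.52% of those tested), 806 above the NSC change (5.77%) and 1640 below it (11.75%). With quantile normalization the split was 1179 to 1408. Grp (4.70 ± 0.48), Cck (4.51 ± 0.57), Sema3c (4.46 ± 0.39) and Nrp1 (4.16 ± 0.38) lay above. So did Cntn2, an axonal adhesion molecule of newborn neurons, which stood at 620 and 638 TPM in NBN while it went from 437 to 21.6 TPM in NSC (4.31 ± 0.44, adjusted p = 8.09e-12). The genes farthest below were ones that rose in NSC: the glutamate receptor gene Grm3 went from 0.751 to 57.2 TPM there and from 2.89 to 1.37 TPM in NBN (-5.77 ± 0.26, adjusted p = 1.30e-24). Gdf10, a relative of bone morphogenetic proteins, went from 1.27 to 73.3 TPM in NSC (-5.66 ± 0.34) and the phospholipase gene Pla2g3 from 0.304 to 57.5 TPM (-5.11 ± 0.34). Cntn1, an adhesion molecule, went from 6.23 to 119 TPM in NSC (-5.04 ± 0.30). The chemokine gene Cxcl14 went from 3.34 to 27.7 TPM in NSC and fell from 11.4 to 1.51 TPM in NBN (-5.21 ± 0.47). NSC came from another reporter line, so the line and the cell type cannot be told apart in this contrast. The cell type field of NSC PN replicate 3 names basal progenitors while its title names NSC, and without it 2479 genes were called.

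**Figure D5:**
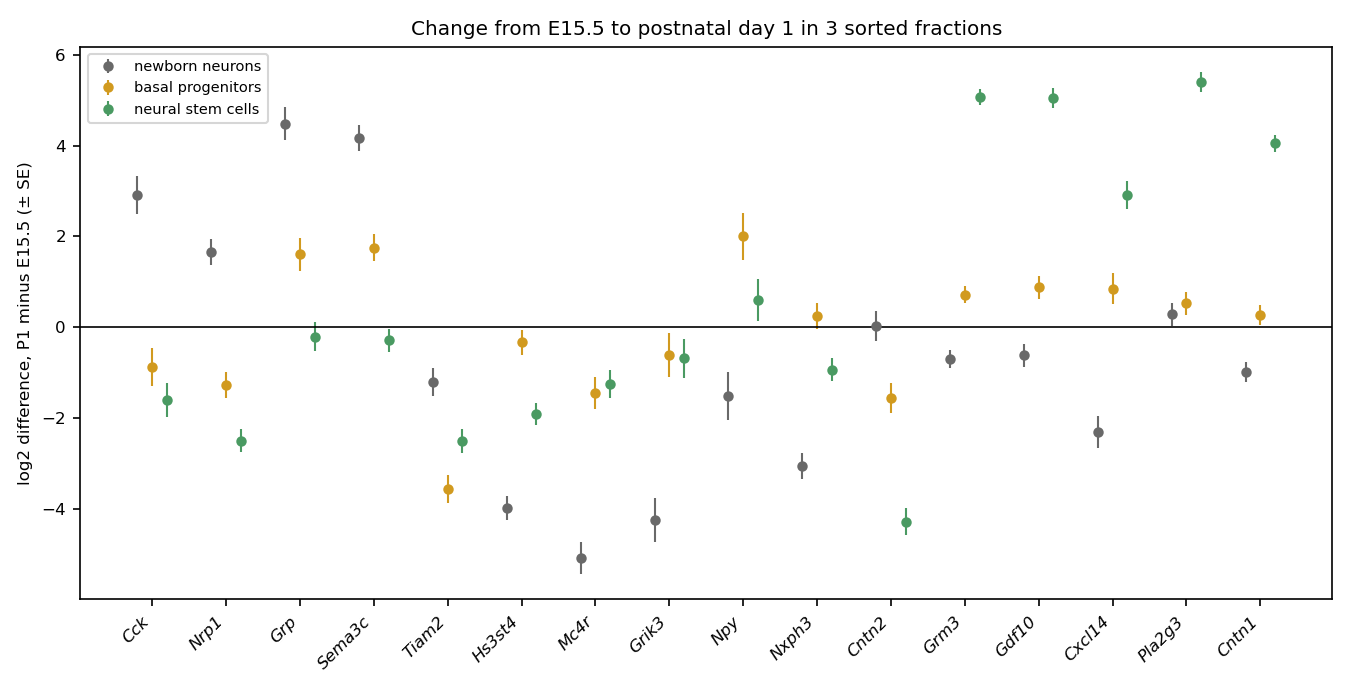
Log2 difference between PN and E15.5 with its standard error in newborn neurons, basal progenitors and neural stem cells, for the genes whose change in newborn neurons differed most from the other 2 fractions. Hs3st4, Grik3 and Nxph3 lie within 1 of 0 in basal progenitors and at -3.98, -4.24 and -3.06 in newborn neurons, and Cck is above 0 in newborn neurons and below it in the other 2.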

How the data were processed

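Gene-level TPM values were used as deposited. The authors made them with kallisto 0.43.0, and builds GRCm38.p2 and mm10 are named, per the submitters' processing notes. RNA came from sorted cells and was sequenced as single reads, per the labels' protocols. TPM sum to a constant in each library and carry no depth, and a count test was not used. Genes whose mean reached 1 TPM in PN or E15.5 NBN were tested with limma 3.58.1 (R 4.3.3) on log2(TPM + 1), with 1 mean for each of 23 groups over 70 libraries, a trended prior and Benjamini-Hochberg adjustment over all 13961 genes. A log2 difference on this scale understates the change of low genes. The members and gene lists were chosen with earlier results of these data known. Named genes are the 12 largest calls in each direction with at least 20 TPM and no overlap between groups, the 5 largest in each direction for the contrasts with BP and NSC, and members of the lists. Alternatives were other pseudocounts, level filters and scalings, library weights, fits on fewer groups, a replicate block and leaving out each library. The script was tested on simulated data. Promoter windows came from RefSeq (GRCm38.p6), and gene positions from a GENCODE annotation of GRCm38. Results for 3 genes of these lists are not reported here singly.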

Additional observations from a re-analysis of the deposited data

Results flagged for a closer look

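Among 219 groups of 4 libraries tested for a library that lay far from the other 3, 16 had one, and chance gives about 1 in 20. In the E15.5 NBN libraries the far library was the highest for Zbtb20 (8.263 TPM), Tshz3 (58.62 TPM), Gabra2 (15.33 TPM), C1ql3 (4.704 TPM), Mki67 (4.418 TPM), Flt1 (1.453 TPM), Fcer1g (0.9175 TPM) and Tac2 (0.283 TPM). It was the lowest for Cdh13 (186.6 TPM), Nr2f1 (154.4 TPM), Sema3c (21.4 TPM), Hpcal1 (9.025 TPM), Hrk (2.57 TPM), Prox1 (0.9489 TPM) and the summed hippocampus and dentate gyrus list (223.8 TPM). In the E15.5 NSC libraries Cck had 1 low library, at 11.82 TPM.

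The change from E15.5 to PN differed between NBN and BP in 451 genes by limma's test of the difference. For the genes named above the difference of the changes was 3.788 for Cck, 2.935 for Nrp1, 2.881 for Grp, 2.416 for Sema3c and 2.367 for Tiam2. It was -3.648 for Hs3st4, -3.642 for Mc4r, -3.633 for Grik3, -3.512 for Npy and -3.308 for Nxph3. Between NBN and NSC the change differed in 2446 genes. Grp (4.698), Cck (4.512), Sema3c (4.461), Cntn2 (4.314) and Nrp1 (4.158) lay highest, and Grm3 (-5.768), Gdf10 (-5.664), Cxcl14 (-5.21), Pla2g3 (-5.107) and Cntn1 (-5.044) lowest.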

How the results depend on the processing

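The counts of calls moved most with the pseudocount. With a pseudocount of 5 there were 444 calls between E15.5 and PN, 52 between E18.5 and PN, 204 against BP and 1590 against NSC, and with 0.5 there were 328 between E18.5 and PN. Under the other alternatives run on these 4 contrasts the counts stayed within 1.5 times of 1094, 199, 451 and 2446. Leaving out 1 library at a time gave 1028 to 1200, 184 to 234, 351 to 446 and 2362 to 2552. With the replicate number as a block the counts were 1105, 184, 449 and 2453. No label ties same-numbered libraries to each other. For E15.5 and PN NBN, correlations of their deviations were 0.334 for number 1 and -0.133 for number 2. The deviations of the 2 PN libraries mirror each other, so these values cannot decide on a pairing. At E15.5 and PN, replicate 1 had the lowest Y-linked sum in both NBN and BP. In BP it stood at 0.214 and 0.696 TPM, against 97.0 to 112 TPM in the others. Whether same-numbered NBN and BP libraries came from the same animals was not tested. The 24 genes with the largest changes kept their direction and call in all 456 values. They were picked as the largest calls in these same libraries, so this says little of stability. Of 158 genes, these and the called list members, 67 lost the call under at least 1 alternative and none turned its direction. Leaving out the E17.5 NBN libraries, chosen after seeing the data, gave 1094 calls. Only 2 PN libraries were available, and with TPM alone no count-based error could be set on low genes. The fit of library weights gave a convergence warning, with weights from 0.0211 to 75.89, so its values, which are counted above, say nothing of stability.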
